A study of Homo sapiens with 9 samples.

Results

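The genes described here are 10 nucleic acid sensors, adaptors and signalling proteins, CGAS, IFI16, TREX1, STING1, IFIH1, DHX58, TLR3, MAVS, TBK1 and IRF3, chosen by name from the 61544 genes listed in the deposited counts. All 10 were found, 9 of them had enough reads to be tested, and TREX1 was listed at 0 in every library. They were followed in 9 bulk RNA-seq libraries, 3 per group, of HMC3 cells after 6 days of treatment, HMC3 being a line derived from human microglia that carries the SV40 large T antigen. The SLO mixture held SBI-0206965 at 10 µM, which blocks the autophagy-starting kinase ULK1, Lopinavir at 1 µM, a protease inhibitor that disturbs the maturation of Lamin A, and O-151 at 1 µM, which blocks the DNA glycosylase OGG1. SLO ½ held 5 µM SBI-0206965, 0.5 µM Lopinavir and 0.5 µM O-151, and VEH cells received the solvent DMSO alone. The comparisons ask how each dose of this senescence-inducing mixture changed the transcripts of the sensing machinery, and whether the doses differed from each other.

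All groups were the same immortalized line, so the values describe 1 line in culture and not microglia of a brain. Of 12 microglial markers, 7 had at most 3 counts in every library (AIF1, CX3CR1, P2RY12, TMEM119, PTPRC, SPI1 and C1QA). Of 6 fibroblast or pericyte markers, COL1A1, COL1A2, PDGFRB and THY1 were above 1 TPM, a level scaled for gene length and library size, throughout. The other markers of that list were scarcely detected, COL3A1 with at most 4 counts in a library and DCN with at most 12. The summed level of the fibroblast list ranged over 1415 to 1648 TPM in VEH, over 1689 to 1721 at the lower dose and over 1996 to 2084 at the higher. Most of that sum was COL1A1, at a mean of 1237 TPM in VEH, 1350 at the lower dose and 1719 at the higher, while PDGFRB fell at both doses (60.2, 41.1 and 49.2 TPM) and COL1A2 was called higher in SLO alone. The part of these shifts in the results below was not tested. Reads on genes numbered 14834295 to 19674841 per library. No source used here says whether the 3 libraries of a group came from separate cultures, so the p-values measure the spread between these libraries, which may be technical.

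Cells watch for DNA and RNA in the wrong place through separate receptors and adaptors that meet at shared kinases. cGAS binds double-stranded DNA in the cytosol and makes the cyclic dinucleotide cGAMP, which activates STING on the endoplasmic reticulum, and the exonuclease TREX1 degrades such DNA. The helicases MDA5 (the product of IFIH1), RIG-I and LGP2 (DHX58) survey cytosolic RNA. MDA5 and RIG-I signal through MAVS on mitochondria, whereas TLR3 detects double-stranded RNA in endosomes. Both arms reach the kinase TBK1, which phosphorylates IRF3, a transcription factor that switches on type I interferon and a set of early antiviral genes. Several sensor genes are themselves interferon-stimulated, and the cGAS-STING route is best known in senescent cells for reading cytoplasmic chromatin.

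The IFIH1 promoter is printed because it was the 1 member promoter that held a pair of GAAA blocks like those bound by interferon regulatory factors, and because IFIH1 was among the genes that separated the doses. RefSeq promoters (GRCh38.p14) were at hand for 6 of the 10 members, IFI16, TREX1, IFIH1, TLR3, MAVS and TBK1, and not for CGAS, STING1, DHX58 and IRF3. The motif GAAANNGAAA, 2 such blocks with 2 free bases between them, was searched on both strands in the 250 bases before each start. In IFIH1 it matched 3 times, at 150, 144 and 12 bases before the start, and the first pair overlap. The capitals mark the matches, which read TTTCNNTTTC where they lie on the opposite strand, in the 250 bases at chr2:162318685-162318934 of the minus strand.
IFIH1 promoter: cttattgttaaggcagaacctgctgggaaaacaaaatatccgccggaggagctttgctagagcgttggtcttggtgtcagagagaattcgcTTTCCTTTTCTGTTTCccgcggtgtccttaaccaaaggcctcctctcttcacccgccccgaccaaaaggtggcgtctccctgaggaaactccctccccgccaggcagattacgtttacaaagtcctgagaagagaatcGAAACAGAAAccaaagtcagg

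Among the other 5 members with a promoter there was no match. For IFI16 the windows searched were chr1:159008741-159008990 and chr1:159009657-159009906. These lie inside the gene span given below, so the bases before the start of that span were not searched. The same motif was in 1061 of 35116 promoters of this length, or 3.02%. Of the pathway genes considered further below, 9 of 10 interferon and early target genes with a promoter held it, as did DDX60 among the 8 RNA sensing genes and AIM2 among the 10 DNA sensing genes, and none of 13 kinase and adaptor genes or 15 nucleic acid metabolism genes did. The 30-base windows of a member and 4 genes whose values are given below are set side by side, 5′ to 3′ on the strand of the gene, with the match in capitals.
IFIH1, 12 bases before the start: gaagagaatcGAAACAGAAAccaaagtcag
DDX60, 44 bases before the start: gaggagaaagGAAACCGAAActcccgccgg
ISG15, 98 bases before the start: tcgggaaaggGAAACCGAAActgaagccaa
IFIT1, 94 bases before the start: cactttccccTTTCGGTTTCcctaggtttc
IFITM3, 26 bases before the start: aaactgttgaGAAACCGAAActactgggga
These windows lie at chr2:162318686-162318715 (minus strand), chr4:168318786-168318815 (minus), chr1:1013380-1013409 (plus), chr10:89392510-89392539 (plus) and chr11:320876-320905 (minus). DDX60, ISG15 and IFITM3 carry the same 10 letters, and IFIT1 carries them on the opposite strand. The windows of the other genes with a match, among them IFIT3 and RSAD2, are not shown. At the match nearest the start they carry other letters, so the shared letters follow from which windows were chosen. A match describes letters only and shows no binding.

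Changes are log2 fold changes of CPM (counts scaled to library size with edgeR's TMM factors) from 1 quasi-likelihood fit to all 9 libraries, and a gene was called at a Benjamini-Hochberg adjusted p below 0.05 over the 14727 genes tested. The treatment moved much of the transcriptome, so each count of members needs its background. In SLO ½ against VEH, 7 of the 9 tested members rose and 1 fell. Of all tested genes 52% were called, with 26.7% of all tested genes higher and 25.3% lower. The risen genes include DHX58, which passed the filter on low counts through its treated libraries. In SLO against VEH, 5 rose and 1 fell, where 64.9% of all genes were called, 32.9% higher and 32.1% lower. Between the doses, 1 member was higher and 3 were lower in SLO than in SLO ½, where 41.1% of all genes were called, 20.8% higher and 20.3% lower. The median log2 fold change of the 9 members was 0.69 in SLO ½, 0.23 in SLO and -0.12 between the doses, beside 0.015, 0.014 and -0.0014 for all genes. The CPM ranges did not overlap for 8 members in SLO ½ against VEH (58.3% of all genes), for 5 in SLO against VEH (66.7%) and for 4 between the doses (51%). Both doses were compared with the same VEH libraries. As RNA was measured in bulk, a lower value from fewer expressing cells and one from less RNA per cell cannot be told apart.

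**Figure D1:**
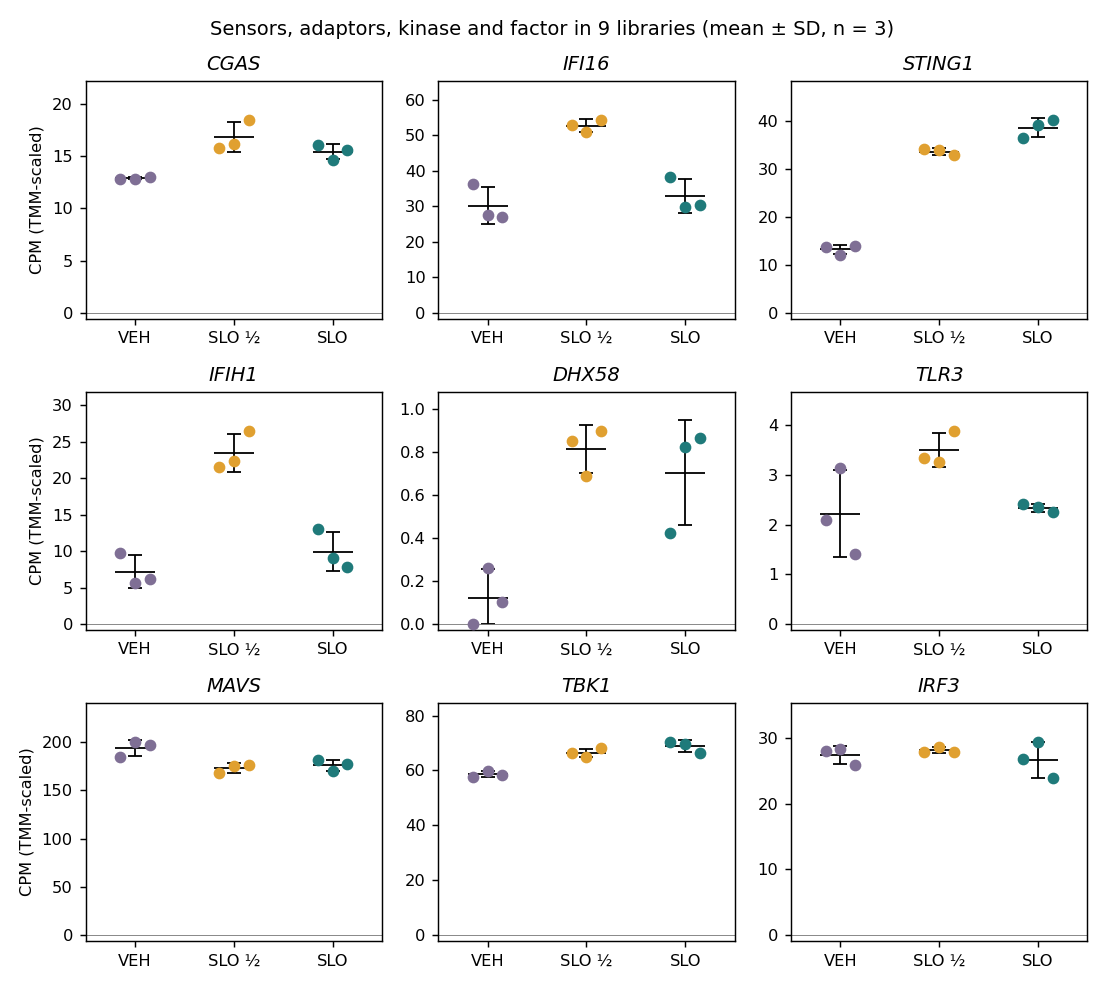
CPM of the 9 tested members in VEH, SLO ½ and SLO, 1 panel per gene, each vertical axis starting at about 0. Points are libraries in replicate order from left to right and bars give the mean and SD of 3 libraries, with lower bars stopped at 0. STING1 stays high at both doses (33.6 and 38.6 CPM against 13.2), IFIH1 and IFI16 are highest in SLO ½, and MAVS, TBK1 and IRF3 stay near their VEH level.

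STING1 rose at both doses, and it was the only member called higher in SLO than in SLO ½. STING1 (ENSG00000184584.13, chr5:139475533-139482935, minus strand, GRCh38 as in the files) encodes the cGAMP receptor that joins DNA sensing to TBK1. Its CPM in the VEH libraries was 13.8, 12.1 and 13.8. In SLO ½ it was 34.1, 34.0 and 32.8, and in SLO 36.5, 39.1 and 40.3. None of the 3 groups overlapped. The log2 fold change was 1.34 ± 0.072 (SE) in SLO ½ (2.53-fold, adjusted p = 2.99e-15, edgeR) and 1.54 ± 0.071 in SLO (2.91-fold, 95% interval 2.63 to 3.22, adjusted p = 3.06e-17). In SLO, 95.3% of tested genes had a lower log2 fold change than STING1. Between the doses STING1 was 1.15-fold higher in SLO (log2 0.20 ± 0.061, adjusted p = 0.0099), and this call was lost without SLO replicate 3 (0.17, adjusted p = 0.0616).

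The DNA sensors upstream of STING1 moved less. CGAS (ENSG00000164430.17, chr6:73413515-73452297, minus strand) stood at 12.8, 12.9 and 13.1 CPM in VEH, at 15.8, 16.2 and 18.5 in SLO ½ and at 16.1, 14.7 and 15.6 in SLO. Every treated library was above every VEH library, while the doses overlapped. CGAS rose 1.30-fold in SLO ½ (log2 0.38 ± 0.085, adjusted p = 0.000411) and 1.19-fold in SLO (log2 0.26 ± 0.087, adjusted p = 0.0115), where the call was lost without SLO replicate 1 (0.22, adjusted p = 0.0533). The doses were not called different (log2 -0.12, 95% interval -0.29 to 0.045, adjusted p = 0.242). Because STING1 rose more, the ratio of its TPM to that of CGAS was 0.817 to 0.935 in VEH, and the treated libraries gave 1.54 to 1.87 (SLO ½) or 1.97 to 2.32 (SLO), with no overlap between any of the groups.

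IFI16 (ENSG00000163565.20, chr1:158999968-159055155, plus strand), a nuclear and cytoplasmic DNA-binding protein of the PYHIN family that also feeds STING, was called higher at the lower dose and not at the higher. It was at 36.2, 27.4 and 26.9 CPM in VEH, at 52.8, 50.8 and 54.3 in SLO ½ and at 38.3, 29.7 and 30.3 in SLO. SLO ½ lay above all other libraries, and VEH and SLO overlapped. IFI16 rose 1.75-fold in SLO ½ (log2 0.81 ± 0.085, adjusted p = 4.34e-09) and was lower in SLO than in SLO ½ (log2 -0.68 ± 0.084, adjusted p = 1.45e-07). In SLO against VEH its log2 fold change was 0.13 with a 95% interval of -0.061 to 0.31 (adjusted p = 0.23). Replicate 1 was the highest library of both VEH and SLO. Without VEH replicate 1 the SLO difference was called (0.27, adjusted p = 0.00638), and without SLO replicate 1 it was -0.0068 (adjusted p = 0.954).

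TREX1 (ENSG00000213689.14, chr3:48465811-48467645, plus strand) was listed at 0 counts and 0 TPM in all 9 libraries. In the GENCODE v44 annotation, which need not be the release used for the counts, all 1448 of its exon bases (100%) are also exon bases of ATRIP (chr3:48446710-48467645) on the same strand. Reads that fall in exons of several genes on 1 strand are set aside as ambiguous by STAR's counting, and 3.03% to 3.26% of reads were so listed here. ATRIP itself had 225 to 303 counts. Under such an annotation a 0 for TREX1 does not measure its expression. None of the other members except TBK1, with 0.489% of its exon bases, shared exon sequence with another gene on its strand.

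The RNA sensor IFIH1 had the largest fall between the doses of the 9 tested members. IFIH1 (ENSG00000115267.9, chr2:162267074-162318684, minus strand) encodes MDA5, a helicase that forms filaments on long double-stranded RNA. Its CPM was 9.71, 5.58 and 6.16 in VEH, 21.5, 22.3 and 26.5 in SLO ½, and 13.0, 9.01 and 7.78 in SLO. The lowest SLO ½ library was above the highest library of either other group, whereas VEH and SLO overlapped. It rose 3.29-fold in SLO ½ (95% interval 2.68 to 4.03, log2 1.72 ± 0.144, adjusted p = 5.40e-11), a log2 fold change above that of 97.9% of tested genes. Compared with SLO ½, IFIH1 in SLO was at 0.426 of its level (log2 -1.23 ± 0.136, adjusted p = 2.18e-08), and 0.55% of tested genes had a lower value. In SLO against VEH it was 1.40-fold higher (log2 0.49 ± 0.167, adjusted p = 0.0123). That call was lost under 7 of 16 alternatives: with DESeq2 (adjusted p = 0.138), with limma on log2(TPM + 1) (adjusted p = 0.0806), on log2(TPM + 0.1) (adjusted p = 0.0749) and on unfiltered TPM (adjusted p = 0.224), and without any 1 of 3 libraries. The value was 0.35 when VEH replicate 2 was left out (adjusted p = 0.0716, edgeR), 0.38 for VEH replicate 3 (adjusted p = 0.0768) and 0.24 for SLO replicate 1 (adjusted p = 0.217), which was the highest SLO library.

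DHX58 (ENSG00000108771.13, chr17:42101404-42112714, minus strand) encodes LGP2, which assists MDA5 and lacks the signalling domains of its relatives. It was close to the detection limit, with 0, 4 and 2 counts in VEH, 15, 12 and 15 in SLO ½ and 7, 14 and 13 in SLO, so it entered the test through the treated groups. As CPM these were 0, 0.263 and 0.104, then 0.852, 0.686 and 0.898, then 0.424, 0.824 and 0.864. All treated libraries were above all VEH libraries. The fitted log2 fold change was 2.69 ± 0.539 in SLO ½ (adjusted p = 0.000122) and 2.48 ± 0.564 in SLO (adjusted p = 0.000344). These sizes rest on 6 VEH counts and are wide, the fold in SLO ½ having a 95% interval of 2.99 to 13.8 and that in SLO one of 2.5 to 12.4. The doses were not called different (log2 -0.21, 95% interval -0.96 to 0.54, adjusted p = 0.68).

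TLR3 (ENSG00000164342.13, chr4:186069155-186088073, plus strand) was also low, at 27 to 65 counts per library. Its CPM was 2.10, 3.15 and 1.41 in VEH, 3.35, 3.26 and 3.89 in SLO ½ and 2.42, 2.35 and 2.26 in SLO. The VEH libraries spread over the whole SLO range, and SLO ½ lay above both. TLR3 rose 1.61-fold in SLO ½ (log2 0.69 ± 0.209, adjusted p = 0.00663), a call lost without VEH replicate 3 (0.42, adjusted p = 0.0977) and with limma on unfiltered log2(TPM + 1) (0.43, adjusted p = 0.192). It was 0.672 times as high in SLO as in SLO ½ (log2 -0.57 ± 0.206, adjusted p = 0.0263), a call lost with DESeq2 (adjusted p = 0.0735), in each limma fit, and when a single library was left out, with -0.49 for SLO ½ replicate 3 (adjusted p = 0.104), -0.57 for SLO replicate 2 (adjusted p = 0.0621) and -0.55 for SLO replicate 3 (adjusted p = 0.073). In SLO against VEH the log2 fold change was 0.12, with a 95% interval of -0.35 to 0.58 (adjusted p = 0.67).

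**Figure D2:**
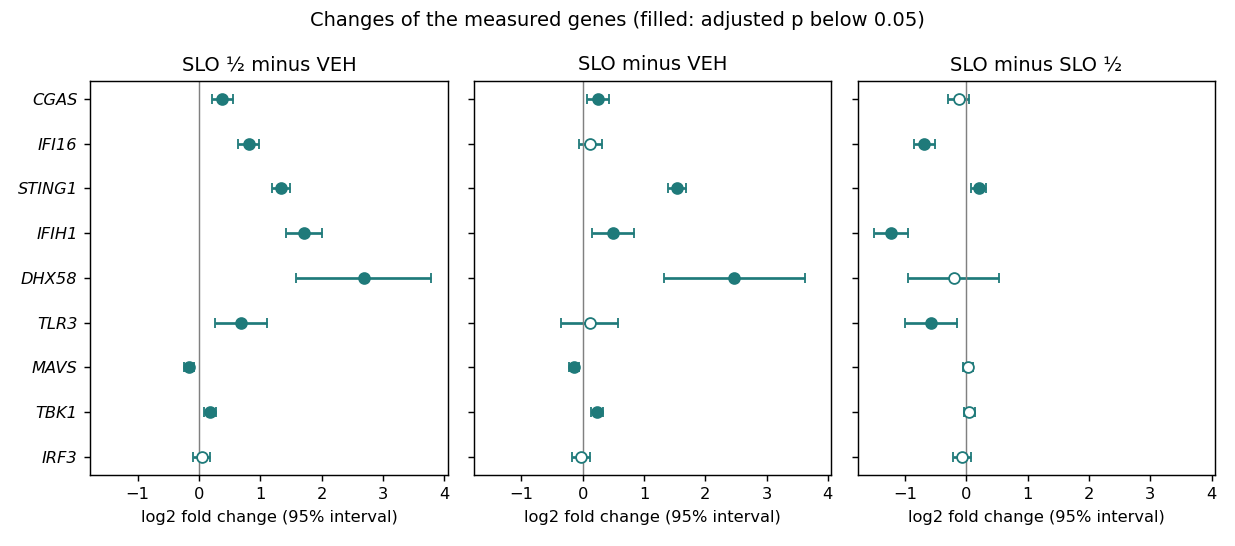
Log2 fold changes of the 9 tested members in SLO ½ minus VEH, SLO minus VEH and SLO minus SLO ½, on 1 shared axis. Circles are edgeR estimates, filled where the adjusted p was below 0.05, and bars are 95% intervals. STING1 lies at 1.34 and 1.54 in the 2 comparisons with VEH, whereas IFIH1 drops from 1.72 to 0.49 and IFI16 from 0.81 to 0.13.

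The helicase adaptor MAVS, the kinase TBK1 and the transcription factor IRF3 changed little. MAVS (ENSG00000088888.18, chr20:3846799-3876123, plus strand), the mitochondrial adaptor of the RNA helicases, was the 1 member that fell. It was at 185, 200 and 197 CPM in VEH, at 168, 175 and 177 in SLO ½ and at 181, 170 and 177 in SLO. Each treated library was below each VEH library. MAVS fell to 0.892 of VEH in SLO ½ (log2 -0.16 ± 0.042, adjusted p = 0.00152) and to 0.908 in SLO (log2 -0.14 ± 0.042, adjusted p = 0.00457), the latter not called when libraries were scaled by size alone (-0.065, adjusted p = 0.158). Its doses did not separate (log2 0.025, 95% interval -0.062 to 0.11, adjusted p = 0.674).

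TBK1 (ENSG00000183735.11, chr12:64452090-64502114, plus strand), the kinase downstream of STING and MAVS, was at 57.6, 59.9 and 58.4 CPM in VEH, at 66.3, 65.0 and 68.0 in SLO ½ and at 70.4, 69.7 and 66.4 in SLO. Both doses stood above VEH and overlapped with each other. TBK1 rose 1.13-fold in SLO ½ (log2 0.18 ± 0.047, adjusted p = 0.00203) and 1.17-fold in SLO (log2 0.23 ± 0.048, adjusted p = 9.85e-05). The SLO ½ call was lost with limma on TPM (0.13 on the log2(TPM + 1) scale, adjusted p = 0.0711). IRF3 (ENSG00000126456.16, chr19:49659569-49665875, minus strand), the substrate of TBK1, was at 28.1, 28.3 and 25.9 CPM in VEH, at 27.9, 28.6 and 28.0 in SLO ½ and at 26.8, 29.4 and 23.9 in SLO. All 3 groups overlapped. The 95% intervals of its log2 fold change were -0.10 to 0.19 in SLO ½ (adjusted p = 0.635) and -0.18 to 0.12 in SLO (adjusted p = 0.717). Phosphorylation, by which IRF3 is controlled, was not measured.

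Levels of different genes can be compared only per gene length, so TPM was used for the order of the members. In VEH the order was MAVS at 77.6 TPM, IRF3 at 34.0, IFI16 at 26.8, TBK1 at 18.7, CGAS at 14.6, STING1 at 13.0, IFIH1 at 6.60, TLR3 at 1.55 and DHX58 at 0.151. No neighbours among these 9 overlapped in VEH. In SLO ½ it ran MAVS at 67.3, IFI16 at 45.5, IRF3 at 33.9, STING1 at 32.0, IFIH1 at 21.0, TBK1 at 20.6, CGAS at 18.4, TLR3 at 2.38 and DHX58 at 0.972. There the ranges of IFIH1, TBK1 and CGAS all overlapped with each other, so these genes could not be separated. In SLO it ran MAVS at 70.1, STING1 at 37.7, IRF3 at 32.9, IFI16 at 29.0, TBK1 at 21.9, CGAS at 17.3, IFIH1 at 9.13, TLR3 at 1.63 and DHX58 at 0.862, and the libraries of STING1 overlapped with those of IRF3, and IRF3 with IFI16. In TPM, STING1 thus stood below TBK1 and CGAS in VEH and above both in each treated group. This order depends on the gene length used, as TBK1 has 14716 exon bases in GENCODE v44 and STING1 has 4798. In CPM, without length, TBK1 was above STING1 in VEH (58.6 against 13.2), SLO ½ (66.4 against 33.6) and SLO (68.8 against 38.6). The TPM of IFIH1 was 6.44% to 12.1% of that of MAVS in VEH, against 29.4% to 34.6% (SLO ½) or 10.1% to 16.6% (SLO) after treatment. Among the 3 RIG-I-like receptors IFIH1 made up 82.6% to 99.0% of the summed TPM in every library.

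**Figure D3:**
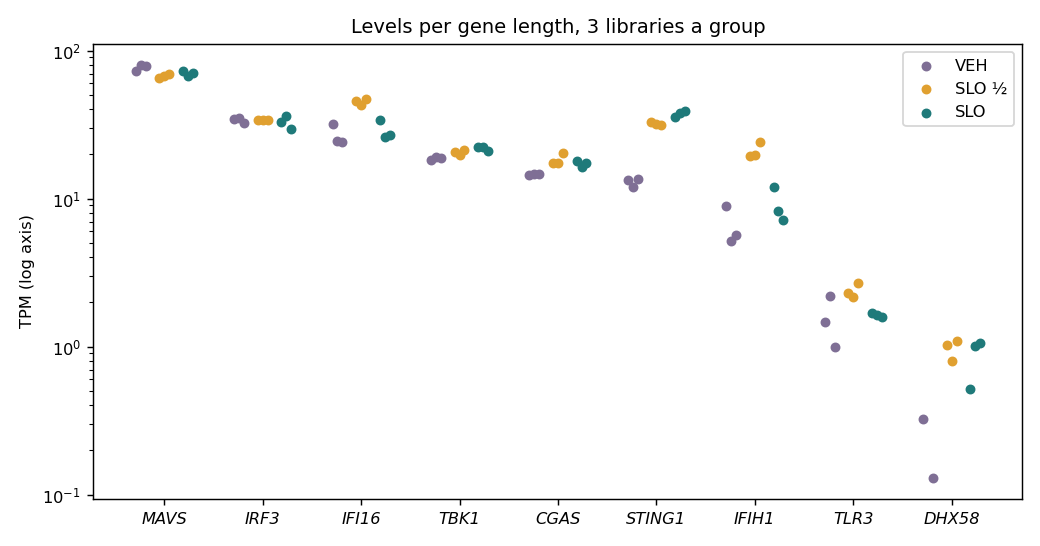
TPM of the 9 tested members on a log axis, ordered by their VEH mean, with 1 point per library. The DHX58 value of VEH replicate 1 is 0 and is not drawn. STING1 moves from 13.0 TPM in VEH to 32.0 and 37.7, and IFIH1 from 6.60 to 21.0 and back to 9.13.

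The members also differed in which genes followed the same course. Likeness was the root mean square difference of centred log2 CPM over the 9 libraries, against 12021 genes, and is a description without a test. Nearest to STING1 were PMAIP1 (0.079), a BH3-only protein gene, and NECTIN3-AS1 (0.087). For IFIH1 these were PARP9 (0.142) and SAMD9 (0.232), and for IFI16 SHFL (0.0826) and PDZK1 (0.105). PARP9, SAMD9 and SHFL are known as interferon-inducible genes, a trait that was not compared between the neighbours of different members. CGAS was nearest to RHBDD2 (0.0525) and RRBP1 (0.0565). DHX58 was nearest to IL18 (0.355) and C4orf19 (0.38), and TLR3 to EGLN2 (0.188) and TRIM21 (0.205), and both DHX58 and TLR3 had few reads. MAVS was nearest to ORC3 (0.0296) and UBE2K (0.0325), TBK1 to ITPRIPL2 (0.0219) and MINK1 (0.0282), and IRF3 to PLPP5 (0.0427) and INO80E (0.0517).

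Other genes of the same pathways were taken from 5 lists of 67 genes, of which 54 were tested. In SLO ½ against VEH, 28 rose and 7 fell, beside 26.7% and 25.3% of all tested genes, and in SLO against VEH 24 rose and 19 fell, beside 32.9% and 32.1%. Between the doses 5 were higher and 30 lower in SLO, beside 20.8% and 20.3% of all genes. The counts of each list below stand against these shares, and with 9 to 13 tested genes a list nothing is read from them about a list as a whole. With library size as the only scaling, the SLO split was 29 higher and 14 lower. That scaling also moved the median of all genes upward, by 0.075 in SLO. The shares of all genes above are from TMM scaling and give no background for this split.

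Partners of DNA sensing included genes that rose and genes that fell. Of 12 listed, 9 were tested, with 2 rising and 2 falling at the lower dose and 2 rising and 5 falling at the higher. LRRC8A, a channel subunit that can carry cGAMP, rose with dose, from 78.5 ± 0.94 CPM (SD, n = 3) to 93.0 ± 2.43 and then 114 ± 3.53 (log2 0.24 and 0.54, adjusted p = 2.86e-05 and 6.09e-12). BANF1, which coats DNA and limits cGAS in the nucleus, fell from 101 ± 1.12 to 89.1 ± 3.89 and 70.7 ± 2.40 CPM (log2 -0.18 and -0.51, adjusted p = 0.00109 and 6.04e-11). SLC19A1, a folate carrier that also imports cyclic dinucleotides, fell in SLO (log2 -0.74, adjusted p = 2.86e-07), with a value of -0.19 in SLO ½ (adjusted p = 0.09). PQBP1, a cofactor of cGAS, rose in SLO ½ (log2 0.16, adjusted p = 0.00678) and stood at -0.067 in SLO (adjusted p = 0.26). AIM2 had at most 2 counts in a library, and ZBP1 and TLR9 had 0 in all 9.

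Among RNA sensing genes, RIGI and DDX60 rose at both doses and were lower in SLO than in SLO ½. Of 12 listed, 10 were tested, with 6 rising and 1 falling at the lower dose and 6 rising and 3 falling at the higher. None was higher and 5 were lower in SLO than in SLO ½. RIGI, the helicase RIG-I and listed under its older symbol DDX58, had 3, 10 and 6 counts in VEH and 39 to 62 in SLO ½, so it also entered the test through the treated libraries. Its CPM of 0.387 ± 0.242 rose with SLO ½ to 3.13 ± 0.691 and with SLO to 1.43 ± 0.602 (log2 3.03 ± 0.338 and 1.90 ± 0.402, adjusted p = 1.33e-08 and 0.000147), and was lower in SLO than in SLO ½ (log2 -1.12, adjusted p = 0.000699). DDX60, a helicase that assists the RNA sensors, went from 7.75 ± 1.06 CPM to 31.8 ± 4.17 and 14.1 ± 1.86 (log2 2.05 and 0.88, adjusted p = 1.64e-15 and 3.77e-07). TRIM25, a ubiquitin ligase of the RIG-I route, rose in SLO ½ (log2 0.53, adjusted p = 3.25e-10) and stood at -0.066 in SLO (adjusted p = 0.254). NLRX1, a mitochondrial protein described as a brake on MAVS, rose at both doses (log2 0.50 and 0.71, adjusted p = 0.00244 and 3.22e-05). PRKRA, an activator of the RNA-dependent kinase PKR, fell at both (log2 -0.27 and -0.34, adjusted p = 3.30e-05 and 1.04e-06). TLR8 was at 0 counts in all libraries and TLR7 at no more than 1.

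Kinases, scaffolds and traffic factors of the signalling step included genes that rose and genes that fell, the called share in SLO ½ being near the 52% of all genes. Of 14 listed, 13 were tested, with 6 rising and 1 falling in SLO ½ and 4 rising and 6 falling in SLO. STIM1, a calcium sensor that holds STING at the endoplasmic reticulum, rose in steps with dose from 50.0 ± 2.42 to 67.4 ± 3.12 and 89.5 ± 5.04 CPM (log2 0.43 and 0.84, adjusted p = 9.82e-08 and 3.12e-14, and 0.41 between the doses, adjusted p = 1.70e-07). OPTN, an autophagy receptor that binds TBK1, rose at both (log2 0.70 and 0.66, adjusted p = 1.21e-12 and 1.16e-12), and SLO was 0.978 of SLO ½ (95% interval 0.916 to 1.04, adjusted p = 0.621). CALCOCO2, another autophagy receptor, fell at both (log2 -0.17 and -0.31, adjusted p = 0.00172 and 4.46e-07). IRF7, the inducible relative of IRF3, rose from 6.38 ± 0.872 CPM to 15.6 ± 0.46 and 9.53 ± 2.21 (log2 1.29 and 0.58, adjusted p = 6.83e-10 and 0.000433), and was lower in SLO than in SLO ½ (log2 -0.71, adjusted p = 1.07e-05).

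Enzymes that remove or edit nucleic acids went both ways as well. Of 15 listed, 13 were tested, with 5 rising and 3 falling in SLO ½ and 4 rising and 5 falling in SLO. SAMHD1, a dNTP hydrolase, rose from 134 ± 3.44 CPM to 255 ± 7.19 and 211 ± 23.4 (log2 0.92 and 0.65, adjusted p = 1.21e-14 and 8.84e-12). PLD3, a lysosomal exonuclease, rose with dose from 52.7 ± 5.08 to 70.6 ± 0.344 and 97.3 ± 3.10 CPM (log2 0.42 and 0.89, adjusted p = 1.81e-07 and 1.27e-14). DNASE1L1, a DNase I relative, rose at both doses (log2 0.44 and 0.49, adjusted p = 3.83e-06 and 2.96e-07). PNPT1, which degrades mitochondrial RNA, fell in SLO (log2 -0.45, adjusted p = 2.05e-08) and stood at 0.075 in SLO ½ (adjusted p = 0.23).

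The tested interferon-induced and IRF3 target genes were called higher at both doses, except IFITM3 in SLO. Of 14 listed, 9 were tested: all 9 rose in SLO ½, 8 rose in SLO, and all 9 were lower in SLO than in SLO ½, with list medians of 2.94, 1.74 and -0.88. CCL5, RSAD2 and OASL among them averaged 0.103, 0.133 and 0.191 CPM in VEH and entered the test through the treated libraries. IFIT1 rose from 9.59 ± 4.02 CPM to 102 ± 8.34 and 22.4 ± 3.79 (log2 3.43 and 1.24, adjusted p = 4.23e-19 and 2.96e-08). ISG15 went from 5.02 ± 0.497 to 30.6 ± 2.24 and 15.6 ± 0.747 CPM (log2 2.60 and 1.63, adjusted p = 4.55e-19 and 6.57e-14). IFIT2 reached 50.4 ± 2.16 and 32.4 ± 5.95 CPM from 5.53 ± 0.716 (log2 3.19 and 2.55, adjusted p = 1.25e-19 and 1.94e-17), and IFIT3 64.4 ± 2.34 and 35.1 ± 3.98 from 10.4 ± 1.44 (log2 2.62 and 1.74, adjusted p = 2.47e-20 and 3.14e-16). IFITM3 was the 1 gene of the list not called in SLO (log2 0.13, adjusted p = 0.141). The interferon genes of the list were scarcely detected, IFNB1 with 0, 0 and 0 counts in VEH, 6, 2 and 1 in SLO ½ and 1, 1 and 2 in SLO, and IFNL1, IFNL2 and IFNL3 with at most 1, 0 and 0.

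**Figure D4:**
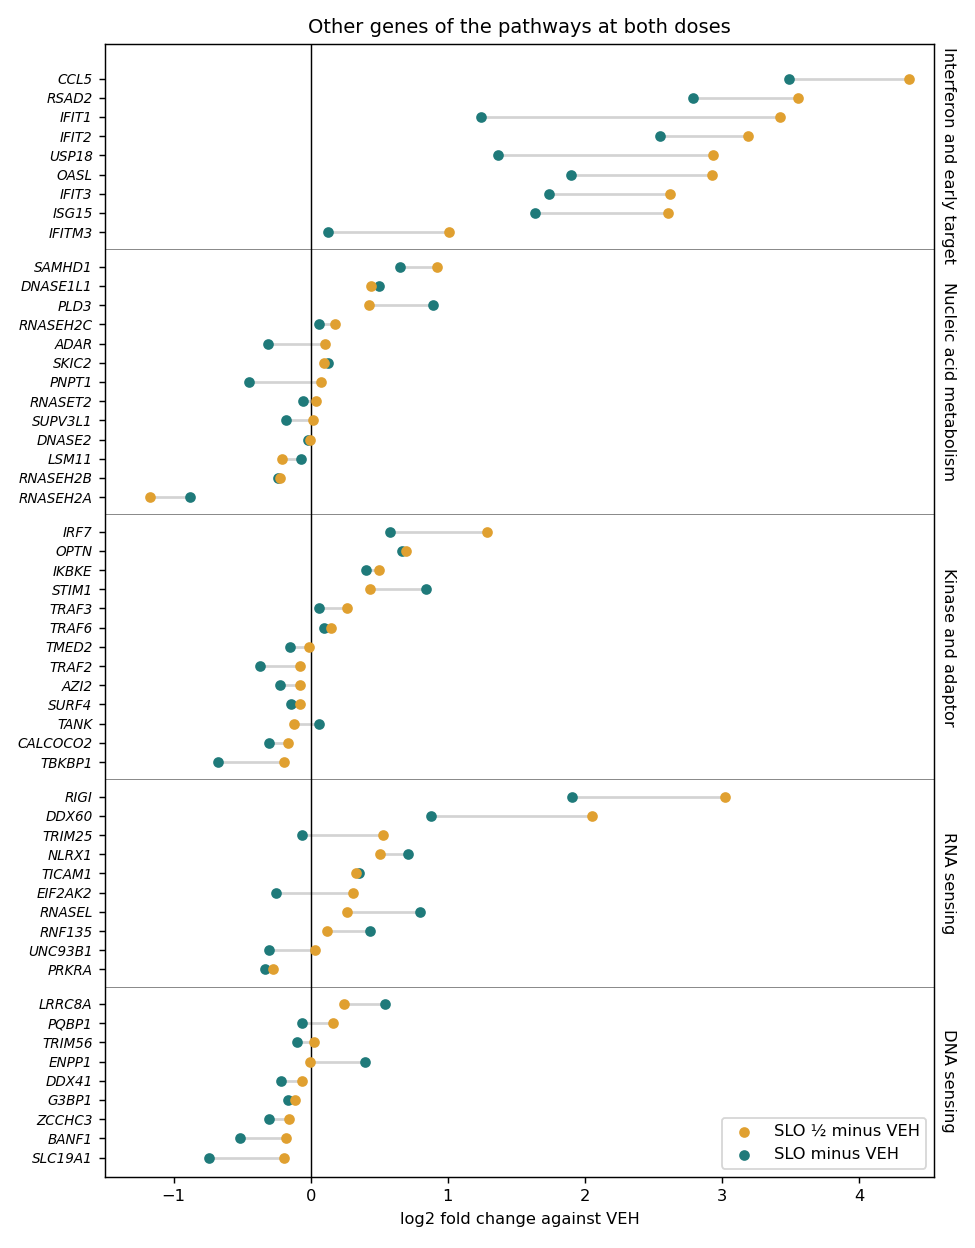
Log2 fold changes against VEH of the 54 tested pathway genes in 5 lists, with SLO ½ and SLO joined by a line for each gene. Among interferon and early target genes every SLO ½ point lies to the right of the SLO point, whereas in the DNA sensing list values run from -0.74 to 0.54.

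Set against their promoters, the 7 tested genes with a GAAANNGAAA match, members included, all rose in SLO ½, 6 of them rose in SLO, and all were lower in SLO than in SLO ½, with a median log2 fold change of 2.60 in SLO ½, 1.24 in SLO and -0.97 between the doses. Of the 43 tested genes with a promoter but no match, 20 rose and 8 fell at the lower dose, 13 rose and 18 fell at the higher, and 5 were higher and 20 lower between the doses. Their median log2 fold changes were 0.075 in SLO ½, -0.066 in SLO and -0.093 between the doses. Over all tested genes 26.7% rose and 25.3% fell at the lower dose and 32.9% rose and 32.1% fell at the higher. Between the doses 20.8% of them were higher and 20.3% lower in SLO. Of the 7, 5 came from the interferon list, so the motif and the list cannot be told apart here. RSAD2 among them had at most 4 counts in a VEH library and entered the test through its treated libraries. AIM2, CXCL10, IFNL1, IFNL2 and IFNL3 also held a match but had too few reads to be tested.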

How the data were processed

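The authors made libraries of polyadenylated RNA (KAPA RNA HyperPrep kit) from HMC3 cells, trimmed the reads with Trimmomatic 0.38 and aligned them to GRCh38 with STAR 2.7.1a, the versions being those of the submitters' processing notes. The authors deposited raw counts per gene and strand from STAR (whole numbers, not normalized) and TPM scaled for gene length and library size. The annotation release is not given in the sources used here. The summary lines for unmapped reads (0.883% to 0.984%), reads matching several places (7.16% to 8.52%), reads outside genes (5.54% to 8.38%) and ambiguous reads (3.03% to 3.26%) were left out. Reads on genes numbered 14834295 to 19674841 per library, so genes with few counts have wide intervals.

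The counts were fitted in R 4.3.3 by edgeR 4.0.16. Its filterByExpr kept 14727 of the 32299 genes that had a count, TMM factors were 0.968 to 1.035, and a quasi-likelihood model of the 3 groups without covariates used all 9 libraries. Groups came from the sample titles. P-values of each comparison were adjusted over all tested genes (Benjamini-Hochberg) with calls at less than 0.05, and intervals are 95% intervals of the fit. Within a group, libraries differed beyond counting noise (chi-square per degree of freedom, 1.70 to 3.86), so none was counted as a duplicate.

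The members and the pathway lists were chosen with earlier results of these data known, from general knowledge of the pathway. All members are named, and per list the 3 smallest p-values at either dose against VEH decided which genes are given in full. Genes named outside that rule, such as IFITM3, were chosen after their values were seen. Likeness used log2 CPM (prior count 2) of tested genes averaging at least 1 on that scale. Gene coordinates are those of the files, equal to GENCODE v44 for 9 of 10 members (TLR3 differs), and that annotation gave the exon overlaps. Promoters are from RefSeq (GRCh38.p14). Some values of the microglial marker list are not reported here.

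Alternatives were DESeq2 1.42.0, its size factors in edgeR, library size alone, no filter, a minimum of 10 counts per library, a fit to the compared groups only, a block for the replicate number, limma 3.58.1 on log2(TPM + 1), on log2(TPM + 0.1) or on unfiltered TPM, and leaving out each library.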

Additional observations from a re-analysis of the deposited data

How the results depend on the processing

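Of 428 values of single members under an alternative, 396 kept their direction and their side of the threshold, 22 lost a call, 1 gained one and 9 changed sign, each of the 9 from a difference that was not called. As each library was left out, IFI16 in SLO against VEH ran from -0.0068 (without SLO replicate 1) to 0.27, TLR3 from -0.16 (without VEH replicate 3) to 0.44, and IRF3 from -0.11 to 0.037 (without SLO replicate 3), with 0.044 for library size alone. IRF3 in SLO ½ against VEH ran from -0.0022 (without VEH replicate 3) to 0.063 and was -0.0014 in each of the 3 limma fits, and DHX58 in SLO against SLO ½ ran from -0.37 to 0.055 (without SLO replicate 1). The calls of STING1 against VEH held at both doses under all 16 alternatives, as did those of IFIH1 and IFI16 in SLO ½ against VEH and between the doses. DHX58 on the log2(TPM + 1) scale, which understates low genes, was 0.69 in SLO and 0.78 in SLO ½ at the lowest. It could not be tested with at least 10 counts in every library or, in SLO against VEH, with only the 2 groups compared.

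Members called numbered 4 to 7 in SLO against VEH, 7 to 8 in SLO ½ against VEH and 2 to 4 between the doses as each library was left out, the 2 being without SLO replicate 3. Pathway genes called numbered 40 to 44, 31 to 34 and 28 to 34. Between the doses 22 pathway genes were called with limma on unfiltered log2(TPM + 1), against 35 in the reported fit, and 62 genes were tested there. Scaling by library size alone moved the median of all genes by 0.075 in SLO and 0.05 in SLO ½.

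Pairing of the libraries by replicate number, if any, was weak. Same-numbered libraries of different groups correlated at 0.0028 to 0.0873 after removal of group means, with none of 9 pairs above 0.1. As 6 of 9 libraries correlated best with their own number, a weak pairing remains possible. With the replicate block 9622, 7749 and 6162 genes were called in the 3 comparisons instead of 9565, 7663 and 6056, members called stayed at 6, 8 and 4, and pathway genes were 44, 35 and 35 instead of 43, 35 and 35. DHX58 had 0 to 15 counts per library and TLR3 27 to 65.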
